A study of Mus musculus with 28 samples.

Results

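The p53 family of transcription factors holds 3 genes, Trp53, Trp63 and Trp73, which were matched by symbol to their gene identifiers. All 3 were present among the 44674 genes of the bulk ovary count table and among the 31053 genes of the single-cell ovary matrices. Mouse ovaries were collected 6 h after females received 0.5 Gy of whole-body gamma radiation (IR) or sham treatment at 0 Gy (nonIR). The females were wild-type (WT) or Chek2-/-, with the Chek2tm1b(EUCOMM)Hmgu allele, a deletion present in every cell of the animal. The paper names C57BL/6J mice but does not state the strain of the WT controls or the background of the Chek2-/- females. A difference of background between the genotypes therefore cannot be told apart from the deletion. Bulk libraries came from paired ovaries of females irradiated at 7 to 9 days of age, with 6 libraries in each of the 4 groups, and each single-cell library held pooled ovaries of 4 females of 7 days, with 1 library in each of the same 4 groups.

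The family members bind related DNA elements and share a core of target genes that halt the cell cycle, repair DNA or start apoptosis. p53 is held low by the ubiquitin ligase MDM2 and is mostly controlled at the protein level, through phosphorylation by damage kinases such as ATM, ATR and CHEK2. Resting oocytes store the transactivating isoform of p63, TAp63, as an inactive dimer that is switched on by phosphorylation through CHEK2 and CK1, and p73 is known for roles in multiciliated epithelia and in oocyte quality. An ovary of this age holds many oocytes in primordial follicles, few growing follicles, and granulosa, stromal, vascular and surface epithelial cells. The transcript values below therefore do not measure the protein activity of any member.

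In GRCm38 (GENCODE M21), Trp53 (ENSMUSG00000059552) lies on the plus strand at chr11:69580359-69591873, Trp63 (ENSMUSG00000022510) on the plus strand at chr16:25683763-25892102, and Trp73 (ENSMUSG00000029026) on the minus strand at chr4:154056253-154140208. The 4 coding transcripts of Trp53 begin within 46 bases of each other. The first bases of the 8 coding transcripts of Trp63 span 118153 bases, and those of the 6 coding transcripts of Trp73 span 54886 bases. The Trp73 span runs from 154140208 to 154085322, with other first bases at 154116605, 154097173 and 154097167. Both genes have an upstream start for the TA forms and an internal start for the N-terminally truncated forms. Gene-level values and 3′ tags do not tell these forms apart, so every value of Trp63 and Trp73 below is a sum over them.

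Windows from 250 bases before to 50 bases after the RefSeq starts (GRCm38.p6) are shown for Trp73 and Trp53. Trp73 is the member whose transcript level changed, and the level of Trp53 did not pass any test. Capitals mark the decamer known as the p53 half-site. Its pattern is symmetric, so a match on either strand is a match on both.
Trp73 upstream start, chr4:154139826-154140125, minus strand: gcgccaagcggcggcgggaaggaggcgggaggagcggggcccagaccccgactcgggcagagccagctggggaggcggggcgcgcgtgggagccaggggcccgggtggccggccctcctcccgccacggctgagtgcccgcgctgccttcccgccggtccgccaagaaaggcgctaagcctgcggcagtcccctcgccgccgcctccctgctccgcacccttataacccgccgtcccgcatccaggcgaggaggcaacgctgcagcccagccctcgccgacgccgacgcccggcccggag
Trp73 internal start, chr4:154097124-154097423, minus strand: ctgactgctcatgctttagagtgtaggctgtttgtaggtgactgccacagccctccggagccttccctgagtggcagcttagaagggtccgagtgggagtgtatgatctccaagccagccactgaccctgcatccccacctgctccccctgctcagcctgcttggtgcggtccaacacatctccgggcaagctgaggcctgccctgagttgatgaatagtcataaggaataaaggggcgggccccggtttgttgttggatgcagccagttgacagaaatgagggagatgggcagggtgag
Trp53, chr11:69580109-69580408, plus strand: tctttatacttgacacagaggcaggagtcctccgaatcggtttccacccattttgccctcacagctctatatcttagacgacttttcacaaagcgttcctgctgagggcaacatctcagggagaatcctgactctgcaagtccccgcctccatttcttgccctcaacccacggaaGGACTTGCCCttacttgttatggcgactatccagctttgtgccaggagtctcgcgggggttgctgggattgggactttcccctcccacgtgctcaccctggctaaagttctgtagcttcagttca
The upstream Trp73 window lies wholly downstream of the GENCODE first base at 154140208. Sequence before that base, and around the Trp73 starts at 154116605 and 154085322, was not read. Neither Trp73 window held the half-site, and the Trp53 window held 1, at position -75 from the start. The same decamer, at chr11:69580284-69580293, also lies in the window of Wrap53, the gene that runs away from Trp53 on the other strand. Over all 32851 windows of this length, 2745 (8.36%) held at least 1 half-site. Among genes that are known targets, the Cdkn1a window held GGACTAGCTT at position -73 and GAACATGTCT at position -51, the Ccng1 window held GGGCAAGCCT at position -185 and the Mdm2 window held GAACTTGCCT at position -186. Counted by gene, 5 of 8 arrest and repair targets and 3 of 9 apoptosis targets with a window held a half-site in at least 1 window, as did 9.55% of all 27025 genes. The same count was 4 of 9 for ligases and inhibitors, the list with Mdm2, 0 of 10 for upstream kinases, 0 of 10 for cofactors and 1 of 5 for neighbours of the members. These matches describe letters within 300 bases and no more than that.

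Total counts ran from 17824920 to 32605519 per bulk library. The edgeR p-values rest on the spread of libraries within groups, estimated per gene over all 24 libraries of the 4 groups. Chek2, the deleted gene, stood at 22.4 ± 1.66 CPM (counts scaled to a library total of 1000000; SD, n = 6) in WT nonIR ovaries and at 3.75 ± 0.545 CPM in Chek2-/- nonIR ovaries, which is -2.58 on the log2 scale (SE 0.10, adjusted p = 7.45e-15; quasi-likelihood test of edgeR, Benjamini-Hochberg adjusted). The summed CPM of 8 oocyte markers was 1786 to 2187 in WT nonIR and 1711 to 2026 in WT IR libraries, and 908 to 1831 in Chek2-/- nonIR and 1024 to 1845 in Chek2-/- IR libraries. Replicate 6 gave the lowest value in both Chek2-/- groups, and it is named below where a value depends on it. In bulk tissue, fewer cells of a type and less RNA per cell cannot be told apart.

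Trp73 was the member that rose after IR, and it did so in WT ovaries. Its level was 1.98 CPM in the lowest, 2.08 in the median and 3.22 in the highest WT nonIR library. In WT IR ovaries the lowest library had 13.6 CPM, the median was 15.9 and the highest library had 22.5. Every WT IR library was above every WT nonIR library, a separation that 1.68% of the 26790 genes tested showed in the same direction. Trp73 rose by 2.80 on the log2 scale (SE 0.26, adjusted p = 8.39e-08, edgeR), or 6.96-fold, where 0.859% of all genes tested were at least 2-fold higher with an adjusted p of at most 0.05. In Chek2-/- ovaries the levels were 0.423, 1.72 and 1.98 CPM (lowest, median and highest) without IR and 0.606, 1.59 and 2.05 CPM after IR. These groups overlapped almost fully, and the log2 fold change was 0.03 (95% interval -0.50 to 0.55, adjusted p = 1, edgeR). The lowest library of each was replicate 6, with 11 and 16 counts of Trp73. The IR effect in WT exceeded that in Chek2-/- ovaries by 2.77 on the log2 scale (SE 0.37, adjusted p = 7.28e-05, edgeR interaction test), a contrast in which 0.493% of genes were called in that direction. Leaving out each library in turn gave 2.63 to 2.97 for this difference.

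Without IR, the Chek2-/- libraries of Trp73 lay just below the WT libraries. The highest Chek2-/- library had 1.981 CPM and the lowest WT library 1.984 CPM, so that the groups did not overlap but all but touched, and 1.53% of genes did not overlap in this direction. The difference was -0.68 on the log2 scale (SE 0.26) and did not pass the test (adjusted p = 0.129, edgeR), whereas DESeq2 gave -0.69 with an adjusted p of 0.049. Without both replicate 6 libraries of the Chek2-/- groups it was -0.49 (adjusted p = 0.0742, edgeR). The counts behind this comparison were low, with 361 counts in all over the 6 WT nonIR libraries and 239 over the 6 Chek2-/- nonIR libraries.

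Trp63, known as a guardian of the oocyte reserve, had a lower median after IR in WT ovaries but did not pass the test. Its lowest, median and highest levels were 30.7, 34.2 and 46.2 CPM in WT nonIR and 24.1, 27.1 and 31.8 CPM in WT IR ovaries. In the WT IR group, 5 of 6 libraries lay below every WT nonIR library. The difference was -0.41 on the log2 scale (SE 0.12, unadjusted p = 0.00250, adjusted p = 0.0816, edgeR), and the adjusted p was 0.0422 in DESeq2. Leaving out replicate 6 of the Chek2-/- nonIR group, which enters this comparison through the shared estimate of the spread, gave an adjusted p of 0.0176. In Chek2-/- ovaries Trp63 stood at 27.5, 43.4 and 50.1 CPM without IR and 36.8, 46.5 and 49.5 CPM after IR, a difference of 0.09 on the log2 scale (SE 0.12, adjusted p = 1, edgeR). The difference between the genotypes' IR effects was -0.51 (SE 0.17) and did not pass the test (adjusted p = 0.239, edgeR). Nor did Chek2-/- against WT without IR, at 0.19 (SE 0.12, adjusted p = 0.396, edgeR). The lowest Chek2-/- nonIR library of Trp63, at 27.5 CPM, was replicate 6. Without both replicate 6 libraries of the Chek2-/- groups this difference was 0.28 (adjusted p = 0.092, edgeR). Leaving out each library in turn gave 0.13 to 0.28.

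Because Trp63 is mainly an oocyte transcript in this tissue, its counts were also set against those of oocyte markers in the same library. Trp63 RNA of other cells also enters these counts. In WT ovaries Trp63 counts were 1.87% ± 0.399 (SD, n = 6) of the summed counts of 8 oocyte markers without IR and 1.503% ± 0.155 after IR, a difference of -0.30 on the log2 scale (exact two-sided permutation test, p = 0.0563, and 0.225 after adjustment over 4 such comparisons). Set against the summed counts of the 6 markers of primordial-type oocytes, Trp63 counts were 16.2% ± 0.904 without IR and 16.6% ± 1.33 after IR. This was a difference of 0.03 on the log2 scale (p = 0.584, exact permutation test). Those 6 markers themselves had median sums of 217 CPM in WT nonIR and 165 CPM in WT IR libraries, against 281 and 294 CPM in Chek2-/- libraries without and with IR. In Chek2-/- ovaries both differences were small, at 0.09 (p = 0.502, exact permutation test) and 0.03 (p = 0.658, exact permutation test). The medians of Trp63 and of the primordial-type markers were thus both lower in WT IR libraries, and the part of oocyte number in this was not tested.

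Trp53 did not pass the test in any comparison. Its lowest, median and highest levels were 116, 129 and 152 CPM in WT nonIR, and 121, 124 and 134 CPM in WT IR ovaries. In Chek2-/- ovaries they were 122, 133 and 139 CPM without IR, and 127, 136 and 159 CPM after IR. All 4 groups overlapped. The log2 fold change after IR was -0.06 in WT (95% interval -0.18 to 0.05, adjusted p = 0.803, edgeR) and 0.07 in Chek2-/- ovaries (95% interval -0.04 to 0.18, adjusted p = 1, edgeR), which bounds a change in either to well under 2-fold. Chek2-/- against WT without IR gave -0.00 (95% interval -0.12 to 0.11, adjusted p = 0.984, edgeR).

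**Figure D1:**
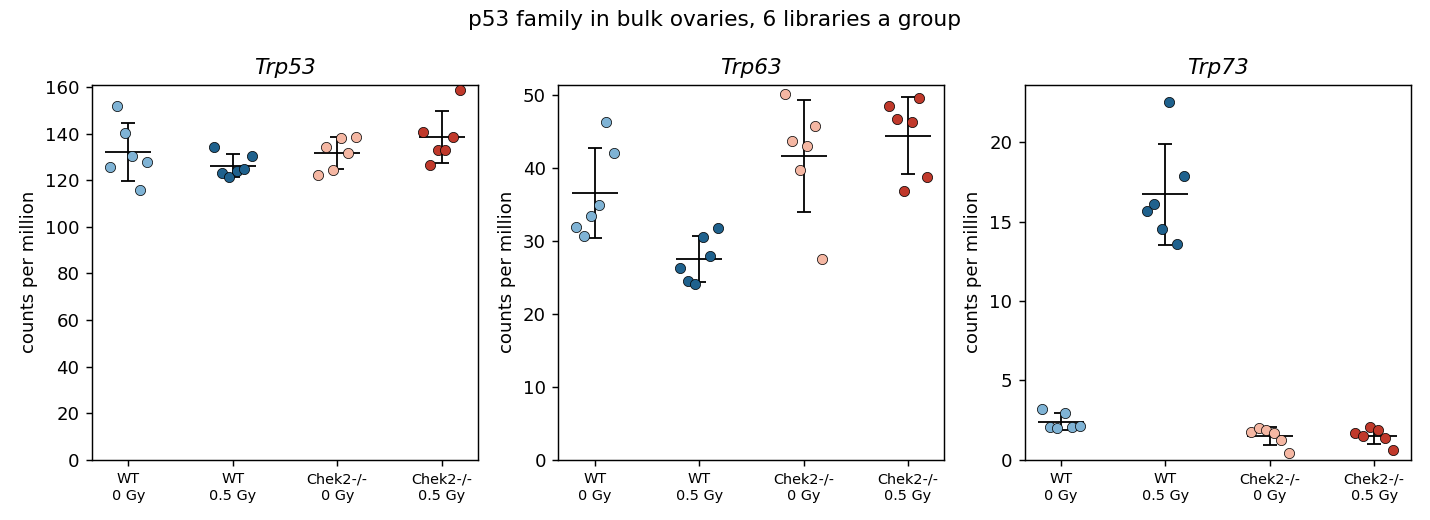
CPM of Trp53, Trp63 and Trp73 in each bulk ovary library (points, 6 per group), with the group mean and SD as black bars, on linear axes from 0. Trp73 lay between 13.6 and 22.5 CPM in WT IR libraries and at or below 3.22 CPM in the other groups.

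**Figure D2:**
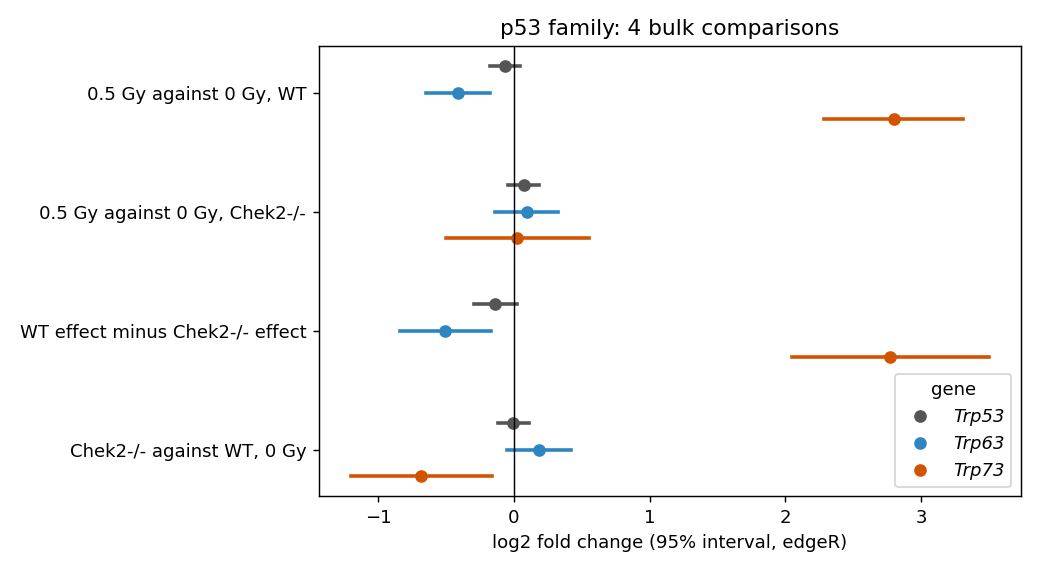
Log2 fold changes of the 3 genes in the 4 bulk comparisons (points) with 95% intervals from the edgeR fit (lines). Trp73 stands at 2.80 in irradiated WT ovaries and at 0.03 in irradiated Chek2-/- ovaries.

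In the single-cell libraries most Trp63 and Trp73 UMIs came from oocyte-like cells, whereas Trp53 was found in every class. After filters and doublet removal the libraries held 36524 cells. These were clustered without the p53 family and pathway genes and named from fixed markers as 9 classes. Between 15 and 31 cell barcodes were shared by any pair of libraries. With 1 library per condition there is no test between conditions, and the limits below cover counting error only. The class called oocyte-like held 582 cells, with Dppa3, Ooep, Zp3, Padi6 and Zp2 as its leading genes and a median of 102898 UMIs per cell. The erythroid-like class also held granulosa markers, so its values are given with that reserve.

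Trp63 was concentrated in oocyte-like cells. They were 1.59% of all cells and held 9.97% of all UMIs, but 4278 of the 5694 Trp63 UMIs (75.1%). By library they held 15.6% of all UMIs in WT nonIR, 7.52% in WT IR, 7.10% in Chek2-/- nonIR and 9.31% in Chek2-/- IR. Of the Trp63 UMIs they held 80.5%, 63.8%, 72.1% and 77.6%, in the same order. The level was 57.2 CPM of summed UMIs (UMIs scaled to 1000000 per class and library; 95% limits 54.5 to 60.1) in the WT nonIR library and 46.3 (42.8 to 50.1) in WT IR. It was 72.8 (68.0 to 77.8) in Chek2-/- nonIR and 63.7 (60.1 to 67.5) in Chek2-/- IR. The ratio of IR to nonIR was thus 0.810 (0.737 to 0.888) in WT and 0.875 (0.801 to 0.957) in Chek2-/- oocyte-like cells. The oocyte-like level was higher in the Chek2-/- than in the WT nonIR library by a ratio of 1.27 (1.17 to 1.38). The mean of per-cell levels was 51.2 CPM in WT nonIR, 41.9 in WT IR, 83.9 in Chek2-/- nonIR and 62.9 in Chek2-/- IR. By this measure the fall after IR was larger in Chek2-/- than in WT cells. The cells of these libraries were spread differently over the oocyte sub-clusters described below, with 84 of 196 WT and 13 of 75 Chek2-/- cells in sub-cluster 3. Within them, WT and Chek2-/- nonIR cells had 65.0 and 64.6 CPM in sub-cluster 1 and 54.8 and 56.7 in sub-cluster 3, but 55.1 and 77.8 in sub-cluster 2 and 73.3 and 84.6 in sub-cluster 4.

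Outside the oocytes Trp63 levels were low and unequal. Erythroid-like cells ranged from 1.82 to 5.16 CPM over the 4 libraries, on 11 UMIs in 162 cells. Fibroblast-like cells ranged over the 4 libraries from 2.52 to 3.30 CPM, granulosa-like cells from 1.36 to 2.22, and perivascular smooth muscle-like cells from 1.82 to 3.51. Surface epithelial-like cells stayed between 0.411 and 0.471 CPM and endothelial-like cells between 0 and 0.283. Free oocyte RNA in these droplets can be read from the 8 oocyte markers, which in WT nonIR stood at 0.679% of their oocyte level in granulosa-like cells, 0.843% in fibroblast-like cells and 0.573% in surface epithelial-like cells. Trp63 in the same library stood at 3.89%, 5.76% and 0.823% of its oocyte level. In WT nonIR the values of granulosa-like and fibroblast-like cells were therefore above that of the markers. That of surface epithelial-like cells, from 2 UMIs, was closer to it. In the other libraries surface epithelial-like cells had 0.929% against 0.259% for the markers in WT IR and 0.617% against 0.268% in Chek2-/- nonIR. In Chek2-/- IR they had 0.646% against 0.352%. These values rest on 3, 2 and 2 UMIs. A Trp63 UMI was found in 151 of 3045 WT nonIR granulosa-like cells (4.96%; median 20590 UMIs per cell) and in 2 of 133 surface epithelial-like cells (1.504%; median 14734 UMIs).

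Trp73 was an oocyte transcript as well, and most of it came from 1 library. Oocyte-like cells held 523 of its 578 UMIs (90.5%), and 447 of these were in WT IR. The level in oocyte-like cells was 1.00 CPM (0.671 to 1.44) in WT nonIR and 33.4 (30.4 to 36.7) in WT IR, a ratio of 33.3 (22.9 to 50.4). Without the oocyte-like cells that carried granulosa or fibroblast genes (sub-clusters 3 and 6) it was 16.2 (10.9 to 25.1). Other genes differed between the same cells. All 7 growing oocyte markers were higher in WT IR than in WT nonIR, with a summed level of 15856 against 11061 CPM, and all 7 granulosa markers were lower, at 153 against 385 CPM. All 7 surface epithelial markers were higher, at 150 against 35.6 CPM in sum, with Krt19 at 34.2 against 1.56 CPM. Markers of further cell types also differed in sum between WT IR and WT nonIR, at 252 against 182 CPM for fibroblast, 101 against 49.7 for perivascular smooth muscle, 40.1 against 14.7 for endothelial, 30.3 against 6.95 for macrophage and 16.3 against 5.46 for pericyte markers, and at 41.3 against 165 for erythroid markers. In Chek2-/- oocyte-like cells the growing oocyte markers summed to 12464 CPM without IR and 14294 CPM after IR, the granulosa markers to 159 and 234 CPM, with 6 of 7 higher after IR, and the surface epithelial markers to 25.8 and 25.98 CPM. Surface epithelial-like cells themselves had 2 Trp73 UMIs in the 245 cells of WT IR, and the part of these markers in the Trp73 level was not tested. In Chek2-/- oocyte-like cells Trp73 was 1.10 (0.583 to 1.87) without IR and 1.90 (1.32 to 2.66) after IR, a ratio of 1.74 (0.894 to 3.59). The counts behind the Chek2-/- values were 13 and 34 UMIs, and the mean of per-cell levels gave a ratio of 6.27 instead. Among all genes with at least 100 UMIs in the compared libraries, 5.90% were at least 2-fold higher after IR in WT and 1.59% in Chek2-/- oocyte-like cells. A Trp73 UMI was seen in 71 of 171 WT IR oocyte-like cells (41.5%, Clopper-Pearson limits 34.0% to 49.3%) and in 15 of 196 WT nonIR ones (7.65%, 4.35% to 12.3%), although the median depth was 14183 UMIs in the former and 181498 in the latter. With each cell thinned to 3000 UMIs, 9 of 120 WT IR cells (7.50%) and 0 of 189 WT nonIR cells had a Trp73 UMI, and 0 of 189 allows a share of up to 1.59%. This left out 51 of 171 WT IR cells and 7 of 196 WT nonIR cells as too shallow.

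In all other classes Trp73 was near the limit of detection. Granulosa-like cells had 19 UMIs in 3640 cells of WT IR (0.239 CPM, 0.144 to 0.373) and 4 UMIs in 3045 cells of WT nonIR, a ratio of 4.43 (1.47 to 17.9). In WT IR this was 0.715% of the oocyte level, and the oocyte markers in those cells were at 0.299% of theirs. Fibroblast-like cells had 11 UMIs in 4846 cells of WT IR and 2 UMIs in 5014 cells of WT nonIR, a ratio of 5.51 (1.20 to 51.2). In WT IR this was 0.494% of the oocyte level, against 0.249% for the oocyte markers. In the Chek2-/- libraries granulosa-like cells had 2 UMIs in 3269 cells without IR and 8 UMIs in 3522 cells after IR. Fibroblast-like cells there had 5 UMIs in 4437 cells without IR and 0 UMIs in 4268 cells after IR. Erythroid-like, macrophage-like and pericyte-like cells had 0 Trp73 UMIs in any library.

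Trp53 was the broadly expressed member, and by pooled UMIs oocyte-like cells had the lowest level of the 9 classes. Endothelial-like cells were highest, at 188 ± 21.1 CPM (mean and SD over the 4 libraries, which are 4 conditions), and their range of 170 to 214 lay above that of every other class. Surface epithelial-like (149 ± 9.02), granulosa-like (142 ± 11.99) and fibroblast-like cells (125 ± 12.4) followed, each overlapping its neighbour in this order. Macrophage-like, erythroid-like and pericyte-like cells had means of 104, 102 and 102 with overlapping ranges, and perivascular smooth muscle-like cells had 75.5 ± 8.15. Oocyte-like cells had 59.5 ± 3.73 CPM, and their range of 55.8 to 63.4 lay below that of every other class. By the mean of per-cell levels oocyte-like cells were lowest in 3 libraries but not in WT IR. There they had 80.4 CPM and perivascular smooth muscle-like cells 65.3 CPM. The order of the other classes also changed in part by this measure. With cells thinned to 3000 UMIs, a Trp53 UMI was likewise found in 27.5% of WT IR oocyte-like cells, above the 19.6% to 26.8% of macrophage-like, perivascular smooth muscle-like, erythroid-like and pericyte-like cells. After IR, the ratio of pooled levels was 0.976 (0.898 to 1.06) in WT oocyte-like cells, where the mean of per-cell levels gave 1.41 instead. It was 0.943 (0.918 to 0.970) in WT and 1.08 (1.06 to 1.11) in Chek2-/- granulosa-like cells. It was 1.07 (1.03 to 1.10) in WT and 1.08 (1.05 to 1.11) in Chek2-/- fibroblast-like cells, and 1.16 (1.04 to 1.28) and 1.03 (0.928 to 1.15) in surface epithelial-like cells.

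**Figure D3:**
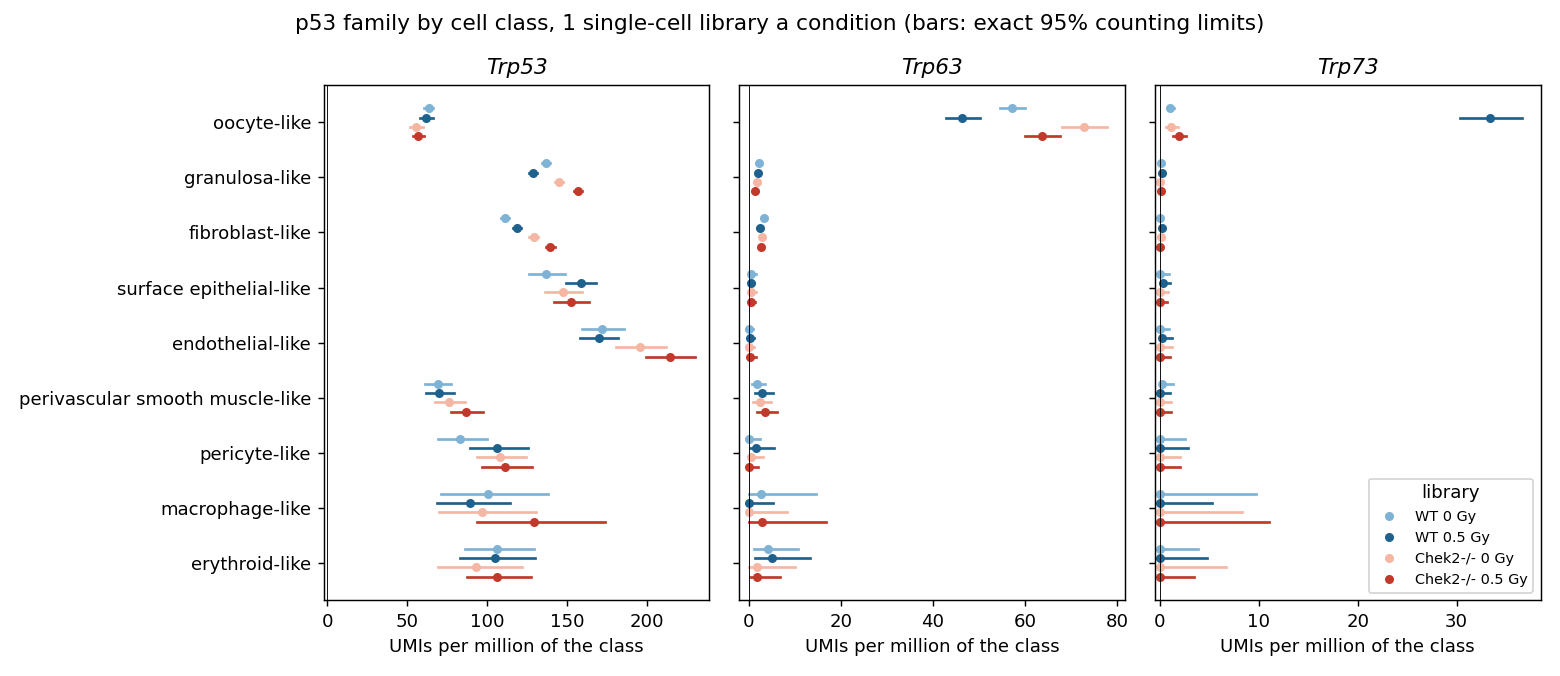
CPM of each class for Trp53, Trp63 and Trp73 in the 4 single-cell libraries, with exact 95% limits for counting error. Trp63 is highest in oocyte-like cells of every library, and the Trp73 level of 33.4 in WT IR oocyte-like cells stands apart from all others.

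Within the oocyte-like cells, 8 sub-clusters were described by number and leading genes. Sub-clusters 0 (Fgf8, Obox5, Oosp1) and 2 (Efcab6, Zfp345) had at least 2-fold more of 4 of 7 growing oocyte markers than the other oocytes. Sub-clusters 3 and 6 each had at least 2-fold more of 4 of 7 granulosa markers, 6 also had more of 6 of 6 fibroblast markers, and 5 held cells with a median of 2876 UMIs. Sub-cluster 7 (Cbr2, Fermt1, Cst6) held 59 cells, all from WT IR. The other WT IR cells lay in sub-clusters 0, 3, 4, 5 and 6, which also held WT nonIR cells.

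Trp73 UMIs were found in the WT IR cells of sub-clusters 0, 3, 5, 6 and 7. Sub-cluster 4 had 2 WT IR cells with 3317 UMIs between them, too few to show it, and sub-clusters 1 and 2 had no WT IR cells. Sub-cluster 7 had 36.8 CPM (33.0 to 40.9), with a UMI in 46 of 59 cells. In sub-cluster 3, the WT IR cells had 27.3 (18.8 to 38.4) against 0.132 (0.0160 to 0.476) in WT nonIR, from 33 and 2 UMIs. In sub-cluster 0, WT IR had 26.1 (20.1 to 33.3) against 4.76 (2.53 to 8.14) in WT nonIR. Without IR the transcript was highest in the sub-clusters with growing oocyte markers, 0 and 2, where WT nonIR had 4.76 and 3.26 CPM from 13 and 11 UMIs. These were 24 of the 29 Trp73 UMIs of WT nonIR oocyte-like cells, and 1 cell of sub-cluster 0 held 5 and 1 of sub-cluster 2 held 7. Sub-cluster 0 of Chek2-/- IR had 9.73 (6.17 to 14.6) from 23 UMIs in 9 cells, with 12 UMIs in 1 cell. In Chek2-/- nonIR it had 4.28 (1.17 to 10.97) from 4 UMIs in 4 cells, with 3 UMIs in 1 cell. In sub-cluster 4, 0 Trp73 UMIs were counted in any library.

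Trp63 varied less between sub-clusters. Sub-cluster 4 had the highest level in each of the 3 libraries with more than 2 cells in it, at 73.3 CPM (62.9 to 84.96) in WT nonIR, 84.6 (75.2 to 94.7) in Chek2-/- nonIR and 84.4 (75.1 to 94.5) in Chek2-/- IR. Sub-cluster 4 also had, with the shallow sub-cluster 5, the highest summed level of the primordial-type markers. In WT IR the level was 49.2 (44.8 to 54.0) in sub-cluster 7, 42.4 (34.7 to 51.4) in sub-cluster 0 and 38.1 (27.9 to 50.8) in sub-cluster 3. The WT nonIR cells of sub-clusters 0 and 3 had 52.7 (44.5 to 62.1) and 54.8 (51.2 to 58.7). Trp53 in sub-cluster 3 was at 67.7 CPM (63.7 to 72.0) in WT nonIR, 112 (93.8 to 132) in WT IR, 73.6 (62.2 to 86.5) in Chek2-/- nonIR and 65.6 (57.9 to 74.1) in Chek2-/- IR. In sub-cluster 6 it was at 65.1 (52.9 to 79.3), 109 (73.8 to 156), 46.8 (22.4 to 86.1) and 76.1 (64.6 to 89.0), and the limits of these sub-clusters overlapped in every library. Both carried granulosa markers, and their WT IR cells were shallow, with medians of 21728 and 3111 UMIs against 192852 and 43150 in WT nonIR. In sub-cluster 0 Trp53 was at 53.1 (44.8 to 62.5) in WT nonIR and 49.0 (40.6 to 58.5) in WT IR. Sub-cluster 7 had 57.0 (52.2 to 62.1), and sub-cluster 5 had 2 UMIs in WT nonIR and 15 in WT IR.

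A UMI of Trp63 was found in 154 of 196 oocyte-like cells of WT nonIR, 86 of 171 of WT IR, 71 of 75 of Chek2-/- nonIR and 104 of 140 of Chek2-/- IR. Of 71 WT IR oocyte-like cells with a Trp73 UMI, 64 also had a Trp63 UMI and 62 had UMIs of all 3 genes. In WT nonIR, 13 of 15 Trp73-positive cells had a Trp63 UMI, and in the Chek2-/- libraries this was so for 6 of 6 without IR and 12 of 14 after IR. Detection of either gene follows the depth of the cell, so these counts do not show that the genes were expressed together beyond what depth gives. Oocyte-like cells with no Trp63 UMI were shallow, with a median of 7728 UMIs in WT nonIR and 2876 in WT IR, against 198622 and 87550 in cells with a Trp63 UMI. A missing Trp63 UMI in such a cell does not show that the gene was silent.

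**Figure D4:**
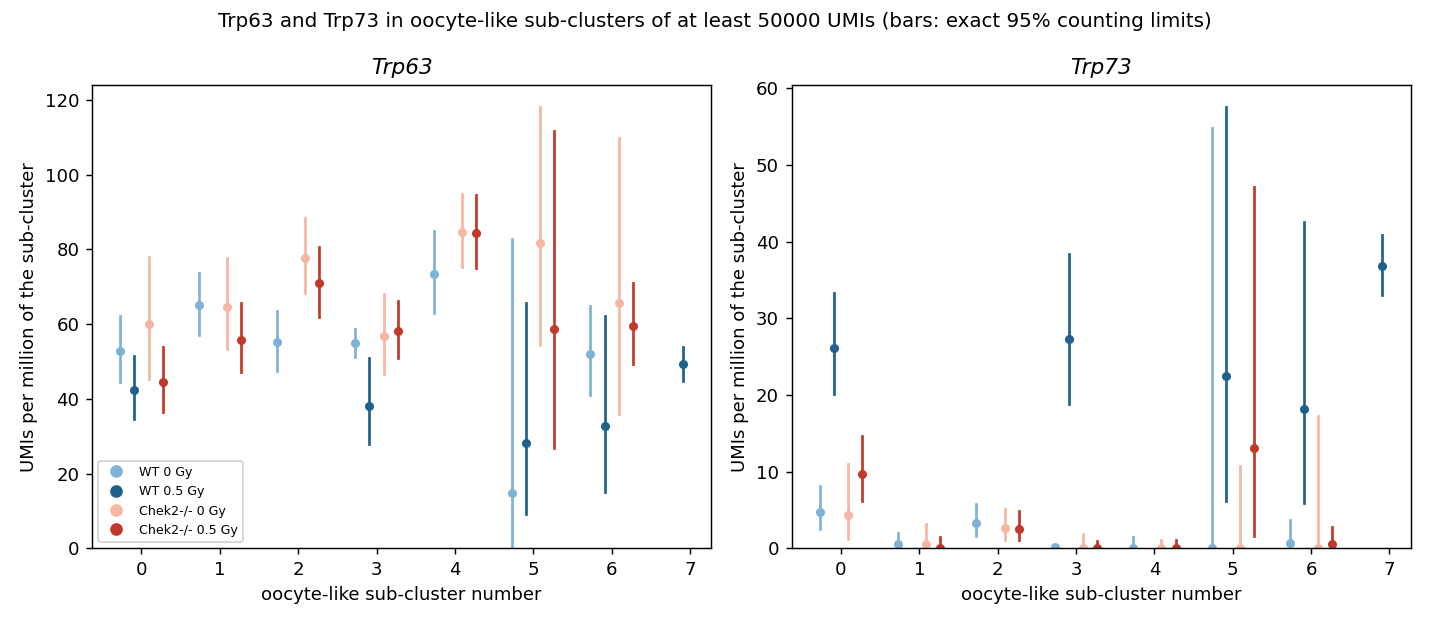
CPM of Trp63 and Trp73 in 8 sub-clusters of oocyte-like cells, by library, with exact 95% counting limits; groups under 50000 UMIs in all are not drawn. The WT IR cells of sub-clusters 0, 3 and 7 had Trp73 levels of 26.1, 27.3 and 36.8 CPM.

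Genes around the family were read from 5 lists of 61 genes, chosen with earlier results of these data known. By adjusted p and a 2-fold change, 11 of the 61 rose after IR in WT bulk ovaries and 0 fell, where 0.859% of all genes rose and 0.216% fell. The median log2 fold change of the 61 was 0.04, against -0.00 over all genes. By adjusted p alone 19 rose and 1 fell, Cop1, a ubiquitin ligase of p53, whose call was lost in most alternatives, where 1.53% of all genes rose and 0.885% fell. In Chek2-/- ovaries 0 of 61 were called by both criteria, where 0.00373% of all genes were, and 2 rose by adjusted p alone, where 0.0112% of all genes did.

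Of the 13 upstream kinases, which phosphorylate the family, 0 passed the test in WT, and log2 fold changes ran from -0.15 to 0.05 over the list. The values were -0.15 for Chek1, -0.09 for Atr and -0.09 for Abl1 (adjusted p = 0.756, 0.764 and 0.739, edgeR). Of 12 ligases and inhibitors, 1 was called, Mdm2, which holds p53 in check. Mdm2 went from 80.8 ± 2.87 to 204 ± 18.5 CPM (SD, n = 6 each) in WT, or by 1.33 on the log2 scale (SE 0.05, adjusted p = 1.19e-14, edgeR). Its Chek2-/- levels were 88.5 ± 3.23 and 89.8 ± 6.28 CPM. Ppm1d, a phosphatase that turns the p53 response off, rose by 0.41 (adjusted p = 6.35e-07, edgeR), under 2-fold. Of 12 cofactors, 1 was called, Trp53inp1, a p53-induced nuclear protein, at 1.23 (adjusted p = 1.84e-09, edgeR).

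Targets made up most of the calls. Of 12 arrest and repair targets, 4 rose by both criteria and 6 by adjusted p alone. Ccng1, a cyclin G that is a standard p53 target, rose by 2.03 on the log2 scale (SE 0.05, adjusted p = 2.61e-19, edgeR), from 39.7 ± 2.52 to 162 ± 8.33 CPM. Cdkn1a, which encodes the cell cycle inhibitor p21, rose by 1.67 (adjusted p = 2.48e-09, edgeR) and the stress sensor Sesn2 by 1.43 (adjusted p = 9.05e-09, edgeR). Of 12 apoptosis targets, 5 rose by both criteria and 9 by adjusted p alone. The BH3-only genes Pmaip1 (NOXA) and Bbc3 (PUMA) rose by 2.68 (adjusted p = 5.29e-10, edgeR) and 1.89 (adjusted p = 7.04e-11, edgeR). Eda2r, a member of the TNF receptor family, rose by 1.78 and Phlda3, an inhibitor of AKT, by 1.21.

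Part of this response was measured in Chek2-/- ovaries. There, Ccng1 rose by 0.56 on the log2 scale (SE 0.05, adjusted p = 6.82e-07, edgeR) and Eda2r by 0.53 (SE 0.08, adjusted p = 0.00427, edgeR). The difference between genotypes was called for 10 of the 61 genes, all with the larger effect in WT, where 0.493% of all genes were. By adjusted p alone, 18 of the 61 had a difference above 0, among them 9 of 12 apoptosis targets and 6 of 12 arrest and repair targets, and 1 below 0, where 0.694% and 0.34% of all genes did. The difference was 1.47 for Ccng1, 2.50 for Pmaip1, 1.31 for Mdm2 and 1.36 for Cdkn1a, with adjusted p of 8.12e-13, 2.01e-06, 4.10e-11 and 5.36e-05 (edgeR interaction test).

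**Figure D5:**
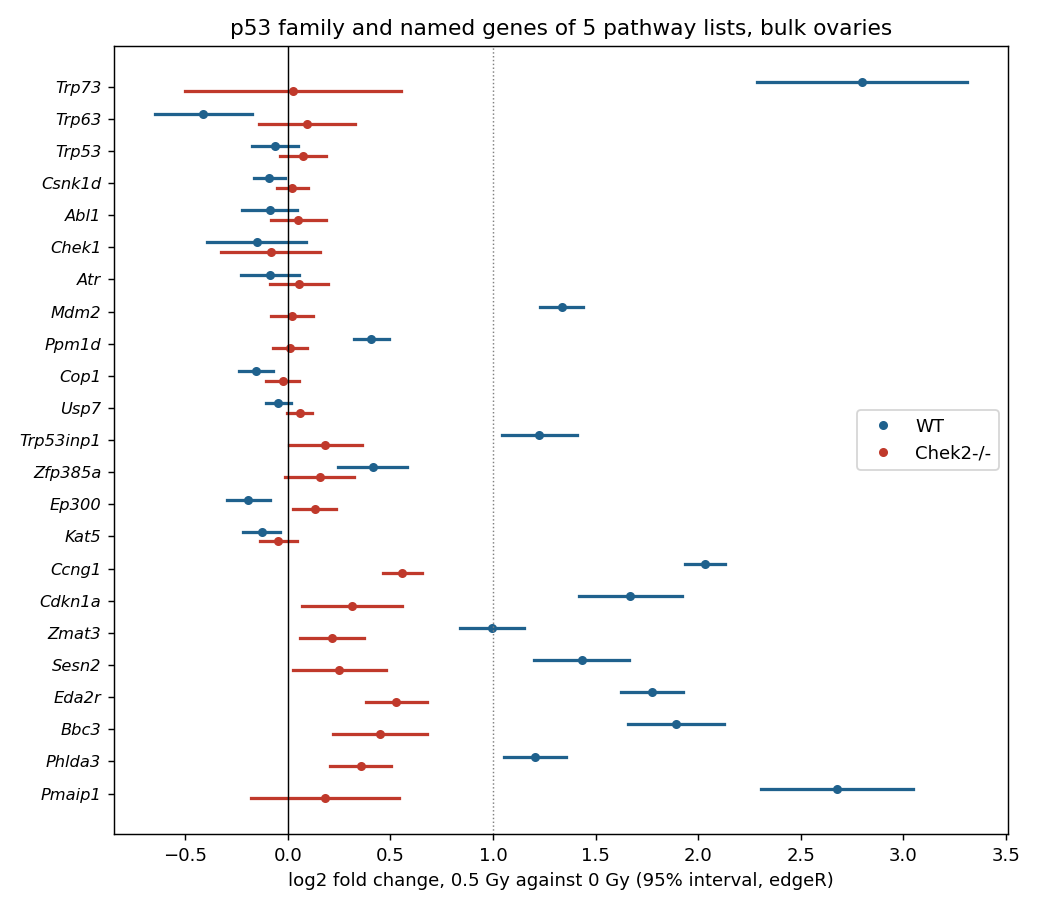
Log2 fold changes after IR in WT and Chek2-/- bulk ovaries for the 3 members and the named genes of 5 lists, with 95% intervals; the dotted line marks a 2-fold rise. Trp73 (2.80) and Pmaip1 (2.68) had the largest values of the genes drawn in WT.

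In oocyte-like cells the same lists gave 15 of 60 genes with at least 100 UMIs that were at least 2-fold higher in WT IR than in WT nonIR, and 1 that was at least 2-fold lower (Dyrk2), against 5.90% and 4.75% of all genes. Ratios were 25.9 (15.3 to 47.3) for Eda2r, 15.8 (12.4 to 20.5) for Pmaip1, 10.5 (10.02 to 10.97) for Mdm2 and 8.51 (7.31 to 9.94) for Bbc3. Fibroblast-like cells had 13 of 61 such genes in WT, against 0.503% of all genes. Granulosa-like cells, in which Trp73 was near the limit of detection, had 11 of 60 such genes in WT, against 1.21% of all genes. In Chek2-/- libraries 0 of 56 list genes were at least 2-fold higher in oocyte-like cells and 2 of 59 in granulosa-like cells, against 1.59% and 0.239% of all genes. Pmaip1 was the 1 list gene that was lower there, with a ratio of 0.378 (0.251 to 0.563) in oocyte-like cells, where 0.0882% of all genes were at least 2-fold lower.

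Genes beside the members or named after them mostly did not follow. Wrap53, which shares its promoter region with Trp53, had a log2 fold change of 0.07 after IR in WT (adjusted p = 0.865, edgeR), and Wrap73 and Ccdc27, the genes on either side of Trp73, had -0.03 and -0.12 (adjusted p = 0.956 and 0.971, edgeR). Tprg, before Trp63, had 0.75 (adjusted p = 0.618, edgeR). The noncoding RNA Trp53cor1 (lincRNA-p21), which lies near Cdkn1a, rose by 3.16 (SE 0.42, adjusted p = 1.93e-05, edgeR) in WT, from 27 to 226 counts in all. The antisense gene Trp73os overlaps the internal start of Trp73 and had at most 5 counts in any library, against 318 or more counts of Trp73 in each WT IR library.

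Among markers of epithelia in which p63 or p73 is known to act, 3 were called in WT after IR, where 0.859% of all genes rose. Of 7 multiciliated epithelium markers, 1 was called, Mcidas, a regulator of multiciliated cell fate, at a log2 fold change of 3.98 (adjusted p = 4.87e-05, edgeR), from 4 to 68 counts in all. Foxj1, which defines ciliated cells, did not pass, at 0.58 (adjusted p = 0.801, edgeR). The summed level of those 7 markers ranged from 19.95 to 23.996 CPM in WT nonIR and from 22.02 to 26.5 CPM in WT IR, and from 19.3 to 23.6 and from 18.1 to 25.1 CPM in Chek2-/- ovaries, so that the groups overlapped in both genotypes. Of 6 stratified epithelium markers 2 were called, Krt5 (3.86, adjusted p = 0.00116, edgeR) and Col17a1 (1.19, adjusted p = 0.000156, edgeR). The summed level of the 6 was 12.3 to 14.0 CPM without and 16.6 to 29.5 CPM with IR in WT, and 7.84 to 17.4 and 8.90 to 18.1 CPM in Chek2-/- ovaries. These sums did not overlap between the WT groups and overlapped between the Chek2-/- groups. In oocyte-like cells Mcidas had 26 UMIs in WT IR and 1 in WT nonIR, and Krt5 had 19 and 0. Sfn, a stratified marker named after its values were seen, was at 46.6 CPM (43.1 to 50.5) in WT IR oocyte-like cells and at 9.64 (8.55 to 10.8) in WT nonIR ones. All 6 stratified markers summed to 54.9 and 12.7 CPM in those cells. The gene set enrichment of the paper also lists Sfn among the top p53 pathway genes in irradiated WT ovaries. The surface epithelial markers, given above, were higher in the same cells. The part of these genes in the levels of Trp63 and Trp73 was not tested.

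Over 36 points (9 classes in 4 libraries), the genes most like each member were ranked by Pearson's r on log2(CPM + 1), as a description in which points of a library share its depth. Trp63 was most like Zfp414 (r = 0.956) and Pdzrn4 (0.929), and Trp73 most like Muc5b (0.985), Gm19554 (0.983) and Ovol2 (0.982), each of 18476 genes compared. The values of Trp73 rest on 1 point, since it had 33.4 CPM in WT IR oocyte-like cells and at most 1.90 CPM in the other points. Trp53 was most like Anp32a (0.908) and Zfp207 (0.882). Trp63 and Trp73 had r = 0.645 with each other, and Trp53 had r = -0.690 with Trp63 and -0.453 with Trp73.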

How the data were processed

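Bulk values were the estimated counts that the authors made with Salmon 1.3.0 (after Trim Galore 0.6.5 and FastQC 0.11.9) and deposited per gene for 24 libraries; they were rounded. Single-cell values were the deposited UMI counts of 4 libraries made with Cell Ranger on mm10 (10x 3′ chemistry). Genes with at least 10 counts in all (26790) entered 1 edgeR 4.0.16 quasi-likelihood fit with TMM and 1 coefficient per group, and Benjamini-Hochberg adjustment over all of them; a gene was called at 2-fold or more with adjusted p up to 0.05. DESeq2 1.42.0 and limma 3.58.1 (voom) were alternatives. CPM used TMM library sizes. Cells with at least 1000 genes, at most 20% mitochondrial and 50% ribosomal UMIs and no doublet call (scanpy 1.11.5, Scrublet; 4.02 to 5.47% of cells) were clustered (Leiden, resolution 0.5) without member and pathway genes. Poisson, conditional binomial and Clopper-Pearson limits are exact at 95% and cover counting error only; 3 counts set the bound for a count of 0. Scripts were tested on simulated data. The members and lists were chosen with earlier results of these data known. Named genes were the 4 of each list with the smallest adjusted p in WT, called or not, any called in Chek2-/- ovaries, and all neighbours; Mcidas, Foxj1, Krt5, Col17a1, Sfn and Dyrk2 were named after their values were seen. Trp53-ps had 0 counts. The set of windows held none for Trp63, so none is shown.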

Additional observations from a re-analysis of the deposited data

Results flagged for a closer look

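The IR effect differed between WT and Chek2-/- bulk ovaries, by the interaction test of the edgeR fit, for Trp73, at 2.77 on the log2 scale (WT effect minus Chek2-/- effect), and for the noncoding RNA Trp53cor1, at 2.53, a call lost in 9 alternatives. By adjusted p alone, this difference was above 0 for 0.694% of all genes and below 0 for 0.34%, and it was above 0 for 9 of 12 apoptosis targets and 6 of 12 arrest and repair targets. Only the genes that the naming rule took are listed here. The test passed for the apoptosis targets Pmaip1 (2.50), Bbc3 (1.44), Eda2r (1.25) and Phlda3 (0.85). It passed for the arrest and repair targets Ccng1 (1.47), Cdkn1a (1.36), Sesn2 (1.18) and Zmat3 (0.78). Among regulators it passed for Mdm2 (1.31), Trp53inp1 (1.04) and Ppm1d (0.40), and in the other direction for the acetyltransferase Ep300 (-0.33), a call lost in 19 alternatives. Of the 16 gene and group combinations examined for a library far from the others, 0 had one by Dixon's criterion.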

How the results depend on the processing

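In WT bulk ovaries Trp73 after IR ranged from 2.70 to 2.91 over the fits that left out 1 library each, Trp63 from -0.45 to -0.32 (adjusted p 0.0176 to 0.244, edgeR), and Trp63 per oocyte marker counts from -0.36 to -0.22 (exact permutation p 0.0216 to 0.113). Trp73 in Chek2-/- against WT nonIR ovaries ranged from -0.78 to -0.49. Trp63 in WT passed the test with DESeq2 (-0.40) and without both replicate 6 libraries of Chek2-/- (-0.41, adjusted p = 0.0160, edgeR), an alternative chosen after seeing the data, and Trp73 in Chek2-/- against WT passed with DESeq2 (-0.69). The cause was not tested. With the replicate number as a block over both genotypes, Trp73 was 2.82 in WT and the interaction was 2.79. Trp63 in WT was -0.41 (adjusted p = 0.0795, edgeR), so no call of the members changed. Deviations of same-numbered libraries correlated over 0.1 in 5 of 6 Chek2-/- pairs (r from 0.0917 to 0.796) and 4 of 6 WT pairs (0.0478 to 0.496). Between genotypes this was so in 8 of 24 pairs (-0.160 to 0.328). The numbers were not taken to pair libraries. The block joined both genotypes, so pairing within a genotype was not tested. Thinned to 3000 UMIs, the shares of oocyte-like cells with a UMI (in the order WT nonIR, WT IR, Chek2-/- nonIR, Chek2-/- IR) were 16.4%, 27.5%, 17.8% and 14.3% for Trp53, 15.9%, 16.7%, 20.5% and 17.6% for Trp63, and 0%, 7.50%, 0% and 0.840% for Trp73. Without sub-clusters 3 and 6, chosen after seeing the data, levels moved to 60.9 CPM for Trp63 in WT nonIR, to 2.13 in WT nonIR and 2.78 in Chek2-/- IR for Trp73, and to 57.9 in WT nonIR, 55.7 in WT IR and 50.8 in Chek2-/- IR for Trp53. In cells of at least 50000 UMIs, also chosen later, Trp53 in WT IR was 57.4. Among single named genes, the WT call of Cop1 was lost in 24 alternatives, the interaction of Ep300 in 19 and that of Trp53cor1 in 9. Over all genes, 211 were called in Chek2-/- against WT nonIR ovaries by edgeR and 81 by DESeq2, and 1 and 9 after IR in Chek2-/- ovaries. Of 584 alternative values of the main results, 18 turned their sign, none of them past the threshold: 10 of Trp53 in Chek2-/- against WT, 6 of Trp73 and 1 of Trp63 after IR in Chek2-/- ovaries, and Trp63 per marker counts in WT (0.03 with the primordial-type list). Single libraries per condition limit the single-cell values, and gene-level counts limit any statement on isoforms.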
